A study of Homo sapiens with 9 samples.

Results

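The HLA class I antigen presentation genes followed here are 9 of the 60230 genes in the series: the heavy chain genes HLA-B, HLA-C, HLA-E and HLA-F, the light chain gene B2M, the peptide transporter genes TAP1 and TAP2, the tapasin gene TAPBP and the regulator NLRC5. The rule lists them by name and uses no measured value. All 9 passed the filter on low counts. They were measured in poly(A) RNA from the human lung cancer cell line NCI-H358 in a series on acquired resistance to sotorasib, a targeted cancer drug. Resistant cells on drug were NCI-H358-R cells collected 4 days after dosing with 250 nM sotorasib. Resistant cells off drug were the same derivative without the drug, for a time that the labels do not state. Parental cells were the untreated, sensitive NCI-H358 line. NCI-H358-R is a single derivative, grown in 250 nM sotorasib for about 2 months until it grew readily, so a difference from parental cells belongs to that derivative, and in the comparison of on-drug with parental cells the drug and the derivative differ together. Each state had 3 libraries, called biological replicates in the labels. Whether each came from its own culture is not stated, and p-values therefore reflect the spread among the 9 libraries, part of which may be technical.

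Class I molecules carry short peptides from inside the cell to its surface, where CD8 T cells inspect them. Proteasomes cut the peptides, the TAP1 and TAP2 proteins pump them into the endoplasmic reticulum, and tapasin and its partner chaperones hold an empty heavy chain with beta-2 microglobulin beside the pump until a peptide binds. HLA-B and HLA-C are classical, highly polymorphic heavy chains. HLA-E and HLA-F are less variable, and HLA-E mainly shows leader peptides of other class I chains to natural killer cell receptors. NLRC5 is a nuclear protein that, with RFX, NFY and CREB family factors, drives transcription of class I genes. Loss or lowering of these genes is a common observation in lung tumours.

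The members did not move as a block in the test used, edgeR's quasi-likelihood test with a Benjamini-Hochberg adjusted p under 0.05 as the threshold. In off-drug cells, against parental cells, the classical chains HLA-B and HLA-C and the light chain B2M were 2.12- to 2.75-fold lower and HLA-F was 1.46-fold lower, TAP2 and NLRC5 were higher, and HLA-E, TAP1 and TAPBP did not pass the test. In on-drug cells, against off-drug cells, 7 of 9 members were lower, where 31.2% of all genes tested were lower. The falls there were largest in NLRC5, HLA-E and TAP1 in this test on counts. In TPM, by limma on log2(TPM + 1), only HLA-E, HLA-F and TAP1 were called lower there. HLA-B, HLA-C and NLRC5 did not pass, and TAP2 and TAPBP were called higher, TAPBP only with a filter on low TPM. Between on-drug and parental cells 7 members were lower, by 1.51- to 3.48-fold, and TAP2 was higher, where 32.9% of all genes were lower and 33.4% higher. The direction of TAP2 in on-drug against off-drug cells, and of NLRC5 in on-drug against parental cells, differed between the count test and TPM. TPM is scaled for transcript length and, unlike the count test, was not scaled by TMM library factors. These effects were not separated.

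Read against all genes, the counts of members called were as follows. Off drug against parental cells, 6 of 9 members were called, 2 higher and 4 lower, where 55.0% of the 17307 genes tested were called (28.4% higher and 26.6% lower), so the number of members called is close to the background. The median log2 fold change was -0.16 for the members and 0.00 for all genes. On drug against off drug, 7 of 9 members were called, 0 higher and 7 lower, where 62.6% of genes were called (31.4% higher and 31.2% lower). On log2(TPM + 1) the members called there were 2 higher and 3 lower. The median log2 fold change on counts was -0.53 for the members and 0.02 for all genes. With library size alone, which shifted the median of all genes by 0.26 in that comparison, the split of all calls was 68.5% higher against 50.1% with TMM. On drug against parental cells, 8 of 9 members were called, 1 higher and 7 lower, where 66.3% were called (33.4% higher and 32.9% lower), with medians of -1.10 for the members and 0.02 for all genes. Here library size alone gave 64.3% of calls higher against 50.4% and a shift of 0.22. Off-drug libraries enter the first and second of these comparisons, and parental and on-drug libraries are also each used in 2 of them, so the comparisons are not independent.

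**Figure D1:**
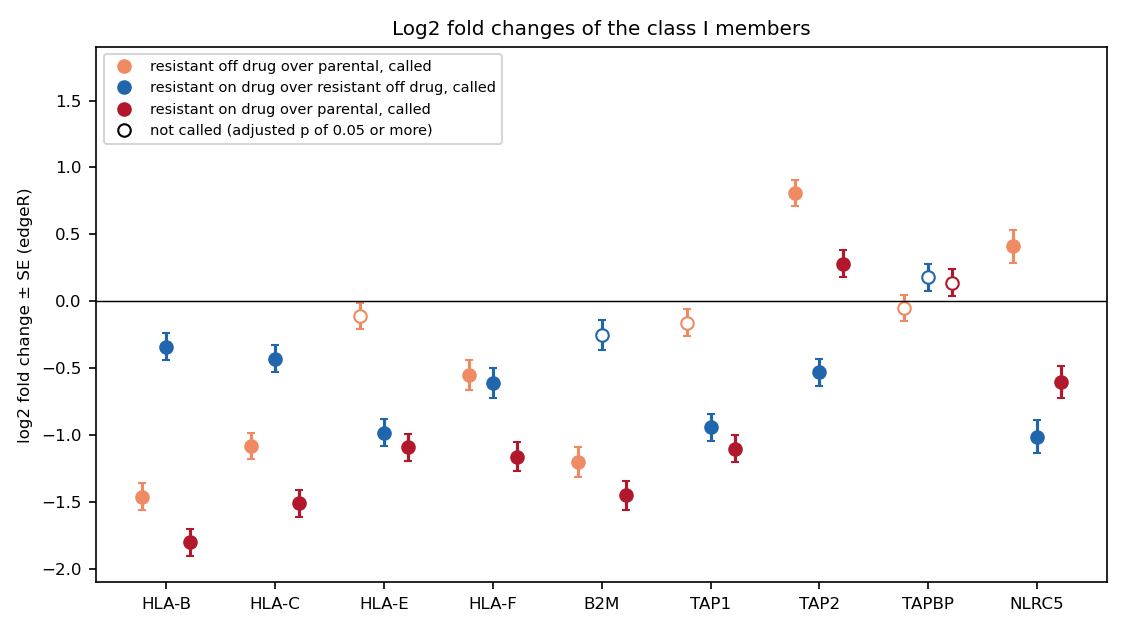
Log2 fold changes of the 9 members in the 3 comparisons, as points with bars of 1 standard error from edgeR. Filled points passed an adjusted p of 0.05 and open points did not. HLA-B, HLA-C and B2M lie at -1.46, -1.08 and -1.20 off drug against parental cells and nearer to 0 on drug against off drug, where HLA-E, TAP1 and NLRC5 lie at -0.98, -0.94 and -1.01.

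Total estimated counts, in units of 1e6, were 33.39 to 34.73 in on-drug libraries, 25.73 to 33.99 in off-drug libraries and 25.7 to 31.79 in parental libraries. The 9 members took 0.159% ± 0.00659 of all counts on drug, 0.172% ± 0.00539 off drug and 0.339% ± 0.0214 in parental cells (SD, n = 3 each). The summed level of 7 epithelial markers (EPCAM, CDH1, CLDN4 and 4 keratins) was 4334 to 5137 CPM on drug. It was 7161 to 7355 CPM off drug and 7250 to 8874 CPM in parental cells, where CPM is counts per 1e6 counts after TMM scaling. These markers did not move together. On drug against off drug 1 was called higher, CDH1, at 318.5 and 223.2 CPM. There 4 were lower, KRT19 the most, at 815.8 and 2251 CPM. Off drug against parental cells 1 was higher and 2 lower. The lower ones were EPCAM, at 411.1 and 822.3 CPM, and CLDN4, at 314.6 and 671.4 CPM. Of 11 leukocyte markers, 7 stayed under 1 CPM in every library, CD3D and MS4A1 were at 0 throughout, and the summed level, mostly CD68, was 9.62 to 10.8 CPM on drug, 74.3 to 82.0 CPM off drug and 60.7 to 70.6 CPM in parental cells. The 8 fibroblast markers summed to 126 to 158 CPM on drug, mostly LUM, against 17.9 to 18.9 CPM off drug and 27.0 to 31.1 CPM in parental cells, with 4 markers under 1 CPM everywhere. The 6 endothelial markers summed to 14.4 to 18.5 CPM on drug, 37.8 to 42.3 CPM off drug and 26.6 to 36.6 CPM in parental cells. EGFL7 was the highest of them on drug and in parental cells, at 11.3 and 28.1 CPM, while off drug EGFL7 averaged 16.7 CPM and ESAM 16.2 CPM. ESAM averaged 0.709 CPM on drug and 1.005 CPM in parental cells. The part of these marker shifts in the results below was not tested. In bulk RNA, fewer cells with a transcript and less of it per cell cannot be told apart.

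The 200 bases before the annotated start of the genes on which the results turn are shown next, since the classical chains and B2M are known to share a promoter module that NLRC5 and its partners use. RefSeq (GRCh38.p14) gave a promoter for 7 of the 9 members. HLA-B lies at chr6:31357180-31357379, HLA-C at chr6:31272093-31272292, TAP1 at chr6:32853705-32853904 and TAP2 at chr6:32838740-32838939, all on the minus strand, and B2M at chr15:44711317-44711516 on the plus strand. Capitals mark matches, on either strand, to AANNGAAA (an interferon-response repeat unit), GGGNNTTNC (kappa-B-like), CCAATCAG (a Y-box with its CCAAT core) and TGACG (part of an X2 box), and adjoining or overlapping matches run together.
HLA-B: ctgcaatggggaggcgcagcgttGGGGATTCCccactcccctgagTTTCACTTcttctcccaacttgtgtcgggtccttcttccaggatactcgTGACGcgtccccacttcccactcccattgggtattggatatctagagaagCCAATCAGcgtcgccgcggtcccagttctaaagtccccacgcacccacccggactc
HLA-C: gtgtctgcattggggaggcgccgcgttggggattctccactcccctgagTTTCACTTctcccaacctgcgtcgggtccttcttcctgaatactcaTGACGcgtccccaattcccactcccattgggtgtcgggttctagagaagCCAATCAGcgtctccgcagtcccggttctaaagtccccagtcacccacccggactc
B2M: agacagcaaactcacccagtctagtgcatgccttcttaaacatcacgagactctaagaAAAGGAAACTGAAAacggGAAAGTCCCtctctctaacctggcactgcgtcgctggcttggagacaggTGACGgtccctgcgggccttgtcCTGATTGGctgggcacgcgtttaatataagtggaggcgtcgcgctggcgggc
TAP1: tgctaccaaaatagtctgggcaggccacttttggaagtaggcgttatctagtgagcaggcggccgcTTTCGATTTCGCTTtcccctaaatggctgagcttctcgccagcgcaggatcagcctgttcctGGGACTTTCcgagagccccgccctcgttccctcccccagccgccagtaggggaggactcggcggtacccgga
TAP2: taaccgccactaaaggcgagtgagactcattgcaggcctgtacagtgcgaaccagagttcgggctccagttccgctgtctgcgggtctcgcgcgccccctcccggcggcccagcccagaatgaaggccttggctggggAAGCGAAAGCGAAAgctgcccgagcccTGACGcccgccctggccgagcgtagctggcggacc
TGACG followed by CCAATCAG within 80 bases was found in HLA-B, HLA-C and B2M and in 0.43% of 35116 human promoters of the same length. In B2M the CCAATCAG match is on the other strand. CCAATCAG began at position -56 in HLA-B and HLA-C and at -52 in B2M, counted from the annotated start. For TAP1 the table holds another window, chr6:32852762-32852961, with no match to any of the motifs. TAP1, TAP2 and TAPBP had no CCAATCAG in their windows, and HLA-F had it without TGACG. AANNGAAA was present in all 5 windows shown and in 16.1% of all promoters, GGGNNTTNC in HLA-B, B2M, TAP1 and TAPBP and in 11.7%, CCAATCAG alone in 3.55% and TGACG alone in 18.4%. These matches describe the letters and do not show that a factor binds.

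The levels of the members, which can be compared between genes only in TPM (scaled for transcript length and depth), spanned a wide range. B2M was highest in each state, at 1438 ± 190 TPM on drug, 1509 ± 52.8 TPM off drug and 3287 ± 146 TPM in parental cells (SD, n = 3 each). NLRC5 was lowest, at 3.21 ± 0.345 TPM on drug, 4.62 ± 1.08 TPM off drug and 3.14 ± 1.08 TPM in parental cells. HLA-B and HLA-C came after B2M in each state. In parental cells HLA-B averaged 386 TPM and HLA-C 356 TPM with overlapping libraries, off drug HLA-C was above HLA-B without overlap (182.7 and 162 TPM), and on drug the pair overlapped again (172.2 and 149.9 TPM). HLA-E followed in parental and off-drug cells. On drug TAPBP, at 70.6 TPM, stood next to HLA-E, at 63.08 TPM, and their libraries overlapped.

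**Figure D2:**
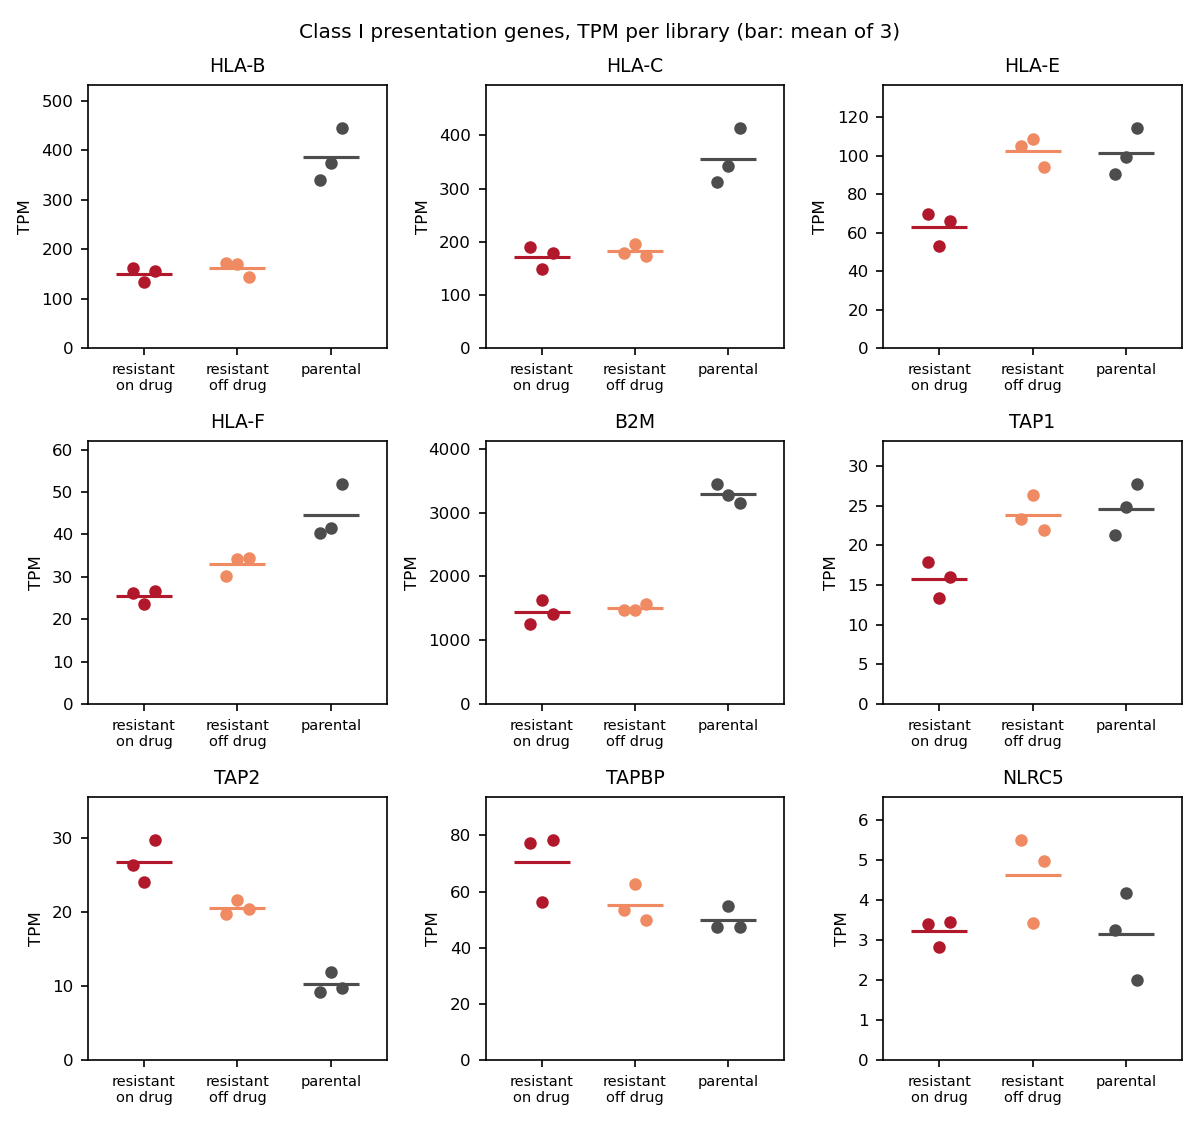
Deposited TPM of the 9 members in each library, with 1 panel per gene, a linear axis from 0, 1 point per library and a bar at the mean of 3 libraries per state. HLA-B, HLA-C and B2M are high in the 3 parental libraries alone, HLA-E and TAP1 are low on drug alone, and TAP2 is lowest in parental cells.

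HLA-B, a classical heavy chain, had 161, 133 and 156 TPM on drug, 172, 170 and 144 TPM off drug and 340, 374 and 444 TPM in parental cells. The 3 parental libraries were above all 6 resistant ones, and the resistant states overlapped in TPM. On the scale of the count test HLA-B averaged 189.7 ± 8.57 CPM on drug, 240.4 ± 16.6 CPM off drug and 660.3 ± 105 CPM in parental cells. It was lower off drug than in parental cells by a log2 fold change of -1.46 ± 0.10 (SE; edgeR quasi-likelihood test, adjusted p = 1.1e-08 over 17307 genes). On drug it was lower than off drug by a log2 fold change of -0.34 ± 0.10 (edgeR adjusted p = 0.008), a difference that no longer passed with upper-quartile factors (-0.21, adjusted p = 0.088), with library size alone (-0.09, adjusted p = 0.44) or in TPM (-0.11, adjusted p = 0.4). The full difference of on-drug from parental cells was a log2 fold change of -1.80 ± 0.10, or 3.48-fold lower (edgeR adjusted p = 3.8e-10).

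HLA-C, the other classical chain described here and a main ligand of killer immunoglobulin-like receptors, had 190, 148 and 179 TPM on drug, 179, 197 and 173 TPM off drug and 313, 342 and 413 TPM in parental cells. As for HLA-B, the parental libraries stood apart above the resistant ones. HLA-C was lower off drug than in parental cells by -1.08 ± 0.10 (log2 ± SE, edgeR adjusted p = 2.2e-07), at 295.4 ± 7.84 CPM off drug and 624.9 ± 97.5 CPM in parental cells. It was lower on drug than off drug by -0.43 ± 0.10 (edgeR adjusted p = 0.0015), with no overlap in CPM, but this did not pass with library size alone (-0.17, adjusted p = 0.12) or in TPM (-0.09, adjusted p = 0.5). HLA-B and HLA-C share sequence: 11.5% of the 31-base words of the longest HLA-C coding transcript also occur in HLA-B transcripts, and 20.1% occur in some other gene. The GENCODE 29 gene models of HLA-B (chr6:31269491-31357188) and HLA-C (chr6:31268749-31272130) overlap on the minus strand. The split of reads between these genes is therefore uncertain.

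HLA-E, the ligand of the natural killer receptor pair CD94 and NKG2, had 69.98, 52.92 and 66.35 TPM on drug, 105.3, 108.7 and 94.17 TPM off drug and 90.66, 99.47 and 114.3 TPM in parental cells. The 3 on-drug libraries were below the other 6, while off-drug and parental libraries overlapped. Its log2 fold change off drug against parental cells was -0.11 ± 0.10 (edgeR adjusted p = 0.37), and the estimate was 0.02 in TPM. On drug it was 1.98-fold lower than off drug (log2 -0.98 ± 0.10, edgeR adjusted p = 3.1e-07) and 2.13-fold lower than in parental cells (log2 -1.09 ± 0.10, adjusted p = 7.9e-08). Both on-drug differences passed in all 18 alternatives, among them the TPM scale and each relevant library left out.

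HLA-F, a chain expressed at low levels that can reach the surface without peptide, had 26.21, 23.49 and 26.64 TPM on drug, 30.25, 34.25 and 34.32 TPM off drug and 40.4, 41.47 and 51.77 TPM in parental cells. The 3 states did not overlap, with parental cells highest and on-drug cells lowest. Its log2 fold change was -0.55 ± 0.11 off drug against parental cells (edgeR adjusted p = 0.0004) and -0.61 ± 0.11 on drug against off drug (edgeR adjusted p = 0.00012). On drug it was 2.23-fold lower than in parental cells (log2 -1.16 ± 0.11, edgeR adjusted p = 1e-07). All 3 differences passed in each of the 18 alternatives. HLA-F was the 1 member that was lower at each of the 3 comparisons in all of them.

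Since the heavy chains share reads, their sum is less sensitive to how reads were divided. The sum covers these 4 genes alone. Summed TPM was 447, 357 and 427 on drug, 486, 510 and 446 off drug and 783, 857 and 1024 in parental cells. Resistant libraries in either state were below every parental library, and the resistant states overlapped by a narrow margin. In CPM the sum was 564.2 ± 36.5 on drug, 830.9 ± 24.3 off drug and 1617 ± 249 in parental cells, giving log2 ratios of -0.96 off drug over parental, -0.56 on drug over off drug and -1.52 on drug over parental. Adding the related class I loci HLA-G, HLA-H, HLA-J, HLA-K, HLA-L and HLA-V left these at -0.94, -0.59 and -1.53.

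The makeup of the sum differed between states with little spread inside each. HLA-B and HLA-C together made up 78.45% ± 0.197 of the summed TPM on drug, 71.74% ± 0.490 off drug and 83.53% ± 0.258 in parental cells (SD, n = 3 each). HLA-E made up 15.33% ± 0.455 on drug, 21.38% ± 0.281 off drug and 11.45% ± 0.246 in parental cells. In both measures the 3 states did not overlap. The share of HLA-E was thus highest off drug, where HLA-B and HLA-C were low and HLA-E did not pass the test against parental cells, and lay between the other states on drug, where HLA-E too was low. The ratio of HLA-B to HLA-C was 0.873 ± 0.0270 on drug, 0.887 ± 0.0668 off drug and 1.085 ± 0.00858 in parental cells, with no overlap between either resistant state and parental cells. The limit on read sharing given above applies to this ratio.

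**Figure D3:**
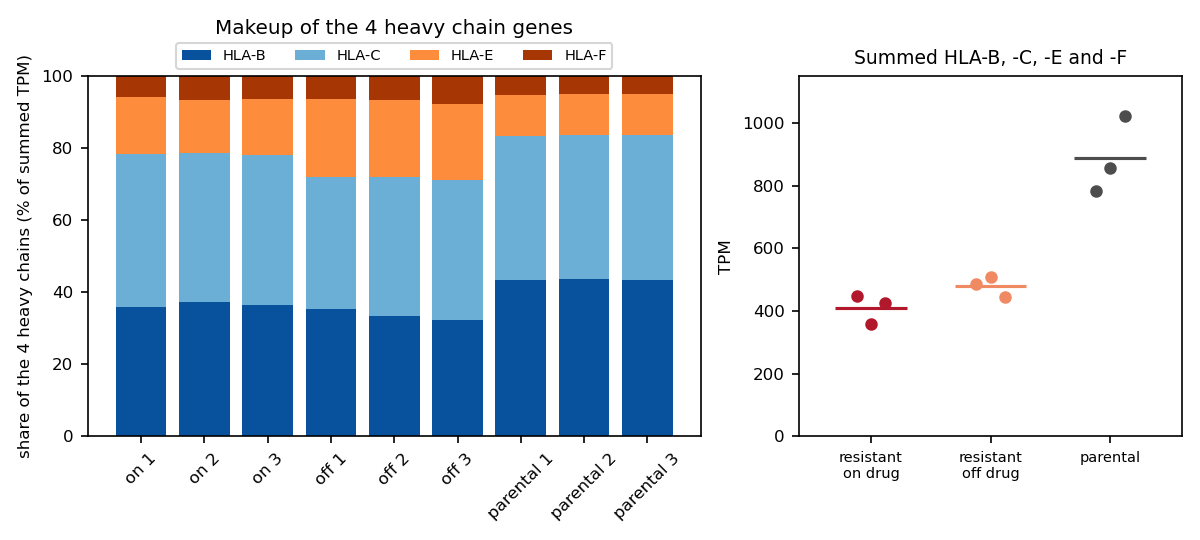
Left, share of each heavy chain in the summed TPM of HLA-B, HLA-C, HLA-E and HLA-F in each of the 9 libraries, as bars that add to 100%. Right, the sum itself in TPM, with 1 point per library and a bar at the mean of 3. HLA-E takes 14.8 to 15.7% on drug and 21.1 to 21.7% off drug, against 11.2 to 11.6% in parental cells.

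B2M encodes beta-2 microglobulin, the light chain without which class I molecules do not reach the surface as stable complexes. It lies at chr15:44711487-44718877, away from the HLA genes, and none of its 31-base words occur in another gene. Its 1258, 1637 and 1418 TPM on drug and 1480, 1478 and 1570 TPM off drug were all below the 3441, 3269 and 3151 TPM of parental cells. The resistant states overlapped. B2M was 2.29-fold lower off drug than in parental cells (log2 -1.20 ± 0.11, edgeR adjusted p = 2.4e-07) and 2.72-fold lower on drug than in parental cells (log2 -1.45 ± 0.11, edgeR adjusted p = 1.4e-08), and both passed in all 18 alternatives. Between on-drug and off-drug cells, at 611.9 ± 112 and 726.4 ± 57.5 CPM, the log2 fold change was -0.25 ± 0.11 (edgeR adjusted p = 0.063). It was called lower in 3 of 18 alternatives: with DESeq2 (-0.24, adjusted p = 0.048), with limma voom (-0.26, adjusted p = 0.047) and without on-drug replicate 2, the highest of its state (-0.38, adjusted p = 0.0028). With library size alone it was 0.01 (adjusted p = 0.95).

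Over the 9 libraries and 11049 genes whose average log2 CPM was 2 or more, the genes whose centred log2 CPM lay closest to that of B2M were YPEL5, FRRS1, KRTCAP3, CRABP2 and SH3YL1, with root mean square differences of 0.063, 0.0889, 0.098, 0.102 and 0.115. HLA-C ranked 71 and HLA-B ranked 101 in that list, HLA-F 319 and HLA-E 1815. YPEL5 averaged 48.96 CPM on drug, 60.8 CPM off drug and 141.3 CPM in parental cells. The ranking describes likeness over 3 states and nothing more.

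TAP1 and TAP2 form the peptide pump as a heterodimer, and their transcripts moved apart against parental cells. On drug against off drug both were lower on counts. TAP1 had 17.88, 13.34 and 15.98 TPM on drug, 23.3, 26.32 and 21.98 TPM off drug and 21.31, 24.83 and 27.67 TPM in parental cells. The on-drug libraries were below the other 6, and off-drug and parental libraries overlapped. The log2 fold change off drug against parental cells was -0.16 ± 0.10 (edgeR adjusted p = 0.18), and with upper-quartile factors it was called lower (-0.25, adjusted p = 0.041). TAP1 was 1.92-fold lower on drug than off drug (log2 -0.94 ± 0.10, edgeR adjusted p = 7.9e-07) and 2.15-fold lower on drug than in parental cells (log2 -1.10 ± 0.10, adjusted p = 1e-07), and both passed in all 18 alternatives. PSMB9, an immunoproteasome subunit gene whose GENCODE 29 model (chr6:32844136-32859585, plus strand) overlaps TAP1 (chr6:32845209-32853978, minus strand), was 12.72 CPM on drug and 31.31 CPM off drug (log2 -1.30 ± 0.10, edgeR adjusted p = 1.3e-08). No source names the strand setting of the quantification, so reads in any part that both genes transcribe cannot be told apart.

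TAP2 was higher off drug than in parental cells on both scales. It had 73.14, 74.55 and 68.37 CPM off drug, against 37.52, 42.84 and 43.08 CPM in parental cells, with no overlap (log2 fold change 0.81 ± 0.10, edgeR adjusted p = 7.8e-06). In TPM it had 19.74, 21.6 and 20.42 off drug and 9.182, 11.86 and 9.676 in parental cells. TAP2 was thus the member with the largest rise in off-drug cells, where TAP1, its partner, did not pass the test.

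On drug the scales parted. In CPM TAP2 had 54.06, 41.45 and 54.36 on drug, below all 3 off-drug libraries (log2 fold change -0.53 ± 0.10, edgeR adjusted p = 0.00033). In TPM it had 26.44, 24.08 and 29.71 on drug, above all 3 off-drug libraries, and limma on log2(TPM + 1) gave a difference of 0.36 (adjusted p = 0.016). The length that the quantification used for TAP2, read from the ratio of count to TPM and set to 1 in parental cells, was 0.670, 0.512 and 0.561 on drug, against 1.015, 0.970 and 0.858 off drug and 1.029, 0.931 and 1.040 in parental cells. The mean of 0.581 on drug was below that of every one of the 5526 genes with at least 10 TPM in each library. GENCODE 29 lists 5 TAP2 transcripts of 274 to 5684 bases. Against parental cells TAP2 was higher on drug by a log2 fold change of 0.28 ± 0.10 (edgeR adjusted p = 0.026) with overlapping CPM values, and this did not pass without on-drug replicate 1 (0.21, adjusted p = 0.12), on-drug replicate 3 (0.21, adjusted p = 0.13) or parental replicate 1 (0.22, adjusted p = 0.12). In TPM this difference was larger, with 26.74 ± 2.83 TPM on drug and 10.24 ± 1.43 TPM in parental cells, no overlap, and 1.31 on log2(TPM + 1) by limma (adjusted p = 7.3e-07).

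TAP2 also shares its strand and 36% of its 31-base words with AL669918.1, a locus that GENCODE 29 annotates across TAP2 and part of HLA-DOB. AL669918.1 had 6.55 ± 0.705 CPM on drug, 6.91 ± 1.06 CPM off drug and 5.01 ± 0.939 CPM in parental cells. TAP2 and this locus together had 56.5 ± 6.92 CPM on drug, 78.9 ± 3.19 CPM off drug and 46.2 ± 4.06 CPM in parental cells, the same order as TAP2 alone. The TPM ratio of TAP1 to TAP2 was 0.589 ± 0.0757 on drug, 1.159 ± 0.0734 off drug and 2.424 ± 0.393 in parental cells, and the 3 states did not overlap. Its value on drug rests on the shortened TAP2 length.

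**Figure D4:**
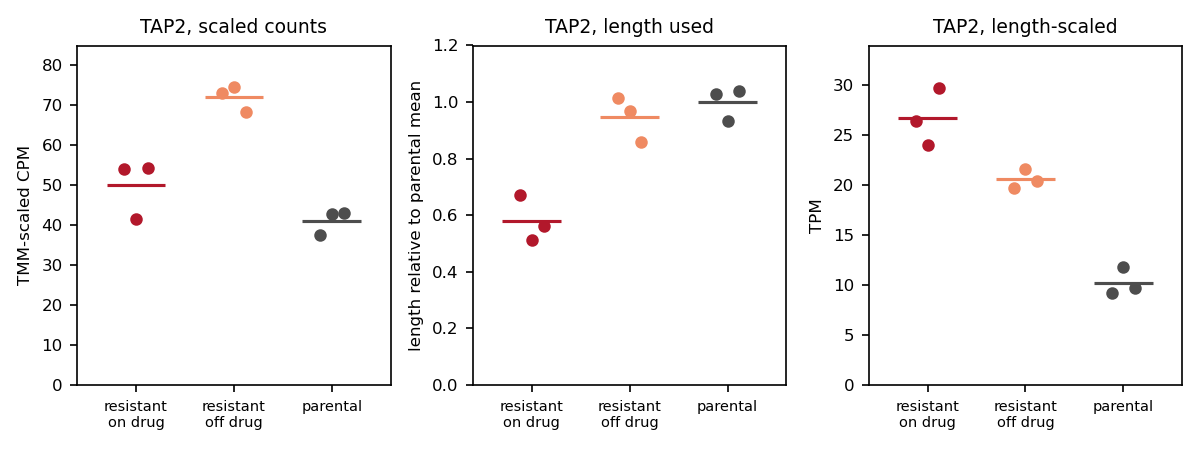
TAP2 in each library as TMM-scaled CPM (left), as the length used in quantification relative to the parental mean (centre) and as TPM (right), on linear axes from 0, with 1 point per library and a bar at the mean of 3. On drug the CPM is below that off drug, the length is 0.512 to 0.670, and the TPM is the highest of the 3 states.

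TAPBP encodes tapasin, which bridges the pump and the empty heavy chain and edits the bound peptide. It had 170, 136 and 183 CPM on drug, 137, 155 and 140 CPM off drug and 136, 158 and 152 CPM in parental cells. All 3 states overlapped, and no comparison passed the test: the log2 fold changes were -0.05 ± 0.10 off drug against parental cells (edgeR adjusted p = 0.74), 0.18 ± 0.10 on drug against off drug (adjusted p = 0.14) and 0.14 ± 0.10 on drug against parental cells (adjusted p = 0.26). On-drug replicate 2 was the lowest of its state, and without it TAPBP was called higher on drug than off drug (0.30, adjusted p = 0.0081) and than in parental cells (0.24, adjusted p = 0.024). On log2(TPM + 1), which lacks the TMM factors, limma also called the on-drug values higher, by 0.34 against off drug (adjusted p = 0.039) and by 0.48 against parental cells (adjusted p = 0.0056). Without the filter on low TPM the difference from off-drug cells was not called. Relative to the 4 heavy chains, TAPBP stood at 0.171 ± 0.0126 on drug, 0.115 ± 0.00728 off drug and 0.0570 ± 0.00947 in parental cells as a ratio of TPM, with no overlap between states.

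NLRC5, the class I transactivator, was the member at the lowest level. It had 7.11, 7.51 and 8.20 CPM on drug, 14.7, 14.7 and 16.5 CPM off drug and 12.04, 12.86 and 9.68 CPM in parental cells. The 3 states did not overlap in CPM, and off-drug cells were highest. Off drug it was higher than in parental cells by a log2 fold change of 0.41 ± 0.12 (edgeR adjusted p = 0.0073), the reverse of HLA-B, HLA-C and B2M in the same comparison. On drug it was 2.01-fold lower than off drug (log2 -1.01 ± 0.12, edgeR adjusted p = 1.8e-06) and 1.51-fold lower than in parental cells (log2 -0.60 ± 0.12, adjusted p = 0.00034). In TPM, at 2.01 to 5.48 TPM over all libraries, these did not pass: the differences on log2(TPM + 1) were 0.46 (adjusted p = 0.073), -0.40 (adjusted p = 0.1) and, with the sign turned, 0.06 (adjusted p = 0.82). The relative length of NLRC5 spread from 0.722 to 0.834 on drug, 0.773 to 1.27 off drug and 0.838 to 1.18 in parental cells. TPM also lacks the TMM factors of the count test, which were 1.113 to 1.124 on drug and 0.937 to 0.972 in parental cells. Which of these turned the sign was not tested.

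The genes whose pattern over the 9 libraries was most like that of NLRC5 were ZNF75D, HSPG2, HELZ2, R3HDM2 and TRIB2, with root mean square differences in centred log2 CPM of 0.0742, 0.102, 0.107, 0.107 and 0.109. Among the members HLA-E came first, at rank 2016 of 11049, and HLA-B last, at rank 9435. ZNF75D averaged 9.70 CPM on drug, 19.5 CPM off drug and 14.2 CPM in parental cells.

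Peptide supply genes, which make, trim or destroy the peptides, were split. Off drug against parental cells, 3 of the 11 tested were higher and 4 lower (list median -0.21, all genes 0.00), and on drug against off drug 1 was higher and 4 lower (median -0.09, all genes 0.02). Of all genes tested, 28.4% were higher and 26.6% lower in the former, and 31.4% and 31.2% in the latter. Of the immunoproteasome subunits, PSMB9 had 12.72 ± 0.245 CPM on drug, 31.31 ± 2.68 CPM off drug and 40.59 ± 4.51 CPM in parental cells and was lower at each comparison, by a log2 fold change of -1.67 ± 0.10 on drug against parental cells (edgeR adjusted p = 5.1e-10). PSMB8 was lower on drug than off drug, at 106.1 ± 13.5 and 175.5 ± 22.1 CPM (log2 -0.73 ± 0.11, edgeR adjusted p = 4e-05), and PSMB10 was 26.33 ± 0.511 and 30.24 ± 2.72 CPM there (log2 -0.20 ± 0.09, edgeR adjusted p = 0.068). In TPM PSMB10 went the other way without overlap, with 48.27 to 52.45 on drug and 40.07 to 41.66 off drug. PSMB8 and PSMB9 were lower on drug than off drug in TPM as well. ERAP1, the aminopeptidase that trims peptides inside the endoplasmic reticulum, was 38.69 ± 3.71 CPM on drug and 60.52 ± 3.16 CPM off drug (log2 -0.65 ± 0.09, edgeR adjusted p = 1.2e-05). PSME1, a proteasome activator subunit, was instead lower off drug than in parental cells, at 190.4 ± 8.95 and 293.1 ± 26.8 CPM (log2 -0.62 ± 0.09, edgeR adjusted p = 1.8e-05). On drug against parental cells 3 of the 11 were higher and 7 lower (median -0.38, all genes 0.02), where 33.4% of all genes were higher and 32.9% lower. THOP1, a cytosolic peptidase that degrades class I peptides, was among the higher ones (log2 0.81 ± 0.09, edgeR adjusted p = 1.3e-06).

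Among the 7 loading chaperone genes the calls were 3 higher and 1 lower off drug against parental cells, 2 higher and 2 lower on drug against off drug, and 3 higher and 3 lower on drug against parental cells, with medians of 0.25, 0.06 and 0.08. Of all genes tested, 55.0, 62.6 and 66.3% were called in the same order, with medians of 0.00, 0.02 and 0.02. CALR, whose product calreticulin holds the heavy chain in the loading complex, had 1203 ± 94.0 CPM on drug, 788.1 ± 27.3 CPM off drug and 706.6 ± 65.0 CPM in parental cells (log2 0.61 ± 0.09 on drug against off drug, edgeR adjusted p = 1.6e-05). CANX, the calnexin gene for an earlier folding step, went the other way, with 690.2 ± 52.3 CPM on drug and 1019 ± 11.8 CPM off drug (log2 -0.56 ± 0.08, edgeR adjusted p = 1.8e-05). PDIA3, whose product ERp57 pairs with tapasin, was lower off drug than in parental cells (log2 -0.48 ± 0.10, edgeR adjusted p = 0.00067). HSPA5, the general chaperone BiP, was lower on drug than off drug (log2 -1.24 ± 0.10, edgeR adjusted p = 1.7e-08).

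Of 20 transcription regulator genes, 10 were higher and 4 lower off drug against parental cells (median 0.23, all genes 0.00), where 28.4% of all genes were higher and 26.6% lower. RFX5, a partner of NLRC5 at class I promoters, had 59.22 ± 3.29 CPM on drug, 54.72 ± 1.58 CPM off drug and 40.56 ± 2.04 CPM in parental cells. It was thus higher off drug than in parental cells (log2 0.43 ± 0.08, edgeR adjusted p = 0.00025). The other subunits of the RFX complex were lower there, RFXAP at 3.27 ± 0.154 CPM off drug and 4.58 ± 0.258 CPM in parental cells (log2 -0.48 ± 0.15, edgeR adjusted p = 0.013) and RFXANK at 24.4 ± 1.30 and 33.2 ± 4.39 CPM (log2 -0.44 ± 0.10, edgeR adjusted p = 0.0014). NFYA, the CCAAT-binding subunit of NFY, was also higher off drug than in parental cells, at 86.71 ± 4.25 and 39.19 ± 2.20 CPM (log2 1.15 ± 0.08, edgeR adjusted p = 1.2e-08), as was NFKB1, an NF-kappa-B subunit (log2 0.58 ± 0.08, edgeR adjusted p = 2.1e-05). The 3 core genes of the PRC2 repressor, EZH2, EED and SUZ12, were higher in all 3 comparisons, and EZH2 had 55.48 ± 5.12 CPM on drug, 25.02 ± 2.59 CPM off drug and 17.08 ± 1.67 CPM in parental cells (log2 1.70 ± 0.11 on drug against parental cells, edgeR adjusted p = 8.8e-10).

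On drug against off drug, 7 of the 20 regulators were higher and 5 lower (median 0.10, all genes 0.02), and on drug against parental cells 9 were higher and 3 lower (median 0.17, all genes 0.02). Among all genes, 31.4% were higher and 31.2% lower in the former, and 33.4% and 32.9% in the latter. IRF1, an interferon-induced activator of class I genes, had 35.24 ± 3.16 CPM on drug, 63.4 ± 1.01 CPM off drug and 52.88 ± 4.41 CPM in parental cells. Like NLRC5 it was higher off drug than in parental cells (log2 0.26 ± 0.09, edgeR adjusted p = 0.019) and lower on drug than off drug (log2 -0.85 ± 0.09, edgeR adjusted p = 5.1e-07). IRF2, another factor of that family that acts on class I pathway genes, was lower on drug than off drug, at 28.23 ± 0.353 and 53.02 ± 4.22 CPM (log2 -0.91 ± 0.08, edgeR adjusted p = 8.2e-08). RFXAP and RFXANK were instead higher on drug than off drug. RFXAP had 6.10 ± 0.718 and 3.27 ± 0.154 CPM (log2 0.90 ± 0.15, edgeR adjusted p = 5.8e-05). RFXANK had 30.71 ± 2.00 and 24.42 ± 1.30 CPM (log2 0.33 ± 0.10, edgeR adjusted p = 0.0088).

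Of the 13 genes for interferons, their receptors, kinases and inhibitors, IFNL1, IFNB1 and IFNG did not pass the filter on low counts. Of the other 10, 5 were higher and 2 lower off drug against parental cells (median 0.17), 2 higher and 4 lower on drug against off drug (median -0.01), and 2 higher and 2 lower on drug against parental cells (median 0.09). All genes tested had medians of 0.00, 0.02 and 0.02 in these comparisons, with 55.0, 62.6 and 66.3% called. IFNGR2, a chain of the interferon gamma receptor, had 27.77 ± 0.237 CPM on drug, 82.47 ± 7.63 CPM off drug and 60.67 ± 1.96 CPM in parental cells (log2 -1.57 ± 0.08 on drug against off drug, edgeR adjusted p = 1.8e-10). The receptor gene IFNAR2 was higher on drug than off drug, at 12.27 ± 1.02 and 6.87 ± 0.207 CPM (log2 0.84 ± 0.11, edgeR adjusted p = 5.6e-06). So was the kinase gene TYK2, at 30.65 ± 0.688 and 24.73 ± 2.20 CPM (log2 0.31 ± 0.09, edgeR adjusted p = 0.0074). The kinase gene JAK2 had 16.18 ± 0.977 CPM on drug, 28.75 ± 0.913 CPM off drug and 16.01 ± 1.26 CPM in parental cells, and JAK1 had 66.21 ± 4.02, 99.27 ± 6.50 and 59.08 ± 5.89 CPM in the same order. JAK1 and JAK2 were highest off drug in CPM, and neither passed the count test between on-drug and parental cells (log2 0.01 ± 0.09, edgeR adjusted p = 0.9 for JAK2 and log2 0.16 ± 0.09, adjusted p = 0.12 for JAK1). In TPM JAK1 was 17.46 to 22.33 on drug and 12.69 to 15.08 in parental cells, without overlap, while JAK2 overlapped between these states.

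Of 8 tested genes linked to class I turnover, 3 were higher and 4 lower off drug against parental cells (median -0.13), 5 higher and 2 lower on drug against off drug (median 0.41), and 4 higher and 2 lower on drug against parental cells (median 0.19). In these comparisons 55.0, 62.6 and 66.3% of all genes were called, with medians of 0.00, 0.02 and 0.02. TMEM127, part of a complex that sends class I molecules to lysosomes, had 88.53 ± 8.58 CPM on drug, 62.34 ± 2.19 CPM off drug and 41.83 ± 2.16 CPM in parental cells (log2 1.08 ± 0.09 on drug against parental cells, edgeR adjusted p = 1.9e-08). IRGQ, an autophagy receptor for misfolded class I chains, was higher on drug than off drug, at 18.71 ± 1.55 and 9.64 ± 0.773 CPM (log2 0.95 ± 0.11, edgeR adjusted p = 1.3e-06). SUSD6, the partner of TMEM127, did not pass in any comparison (log2 0.03 off drug against parental cells, -0.13 on drug against off drug and -0.10 on drug against parental cells, edgeR adjusted p = 0.83, 0.28 and 0.4). MARCHF9, a ubiquitin ligase that can lower class I at the surface, had 14.34 ± 2.63 CPM on drug, 10.45 ± 0.961 CPM off drug and 24.56 ± 4.43 CPM in parental cells (log2 -1.23 ± 0.15 off drug against parental cells, edgeR adjusted p = 3.7e-06). SYVN1, a ubiquitin ligase of endoplasmic reticulum protein degradation, was lower on drug than off drug, at 42.63 ± 4.44 and 72.75 ± 2.48 CPM (log2 -0.77 ± 0.09, edgeR adjusted p = 1.8e-06).

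The class II presentation genes, which serve the parallel pathway to CD4 T cells, were at low levels, and 5 of 13 were not tested. All 8 tested were lower off drug than in parental cells (median -2.19, all genes 0.00), where 26.6% of all genes were lower. On drug against off drug 4 were higher and 0 lower (median 0.74), and on drug against parental cells 1 was higher and 5 lower (median -1.27). Among all genes, 31.4% were higher and 31.2% lower in the former, and 33.4% and 32.9% in the latter, both with a median of 0.02. HLA-DRA, HLA-DMB and CD74 passed the filter on low counts through parental cells alone. They averaged 0.014, 0.16 and 0.26 CPM off drug and 0.87, 0.86 and 1.24 CPM in parental cells. Being lower in resistant than in parental cells was thus fixed for these genes by the filter. The counts and medians above include them. HLA-DRB1 had 1.16 ± 0.0502 CPM on drug, 0.235 ± 0.189 CPM off drug and 3.86 ± 0.681 CPM in parental cells. CTSS, a lysosomal protease that processes the invariant chain, was at a higher level, with 76.39 ± 3.85 CPM on drug, 36.98 ± 2.69 CPM off drug and 45.08 ± 3.03 CPM in parental cells (log2 1.05 ± 0.09 on drug against off drug, edgeR adjusted p = 2.9e-08).

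**Figure D5:**
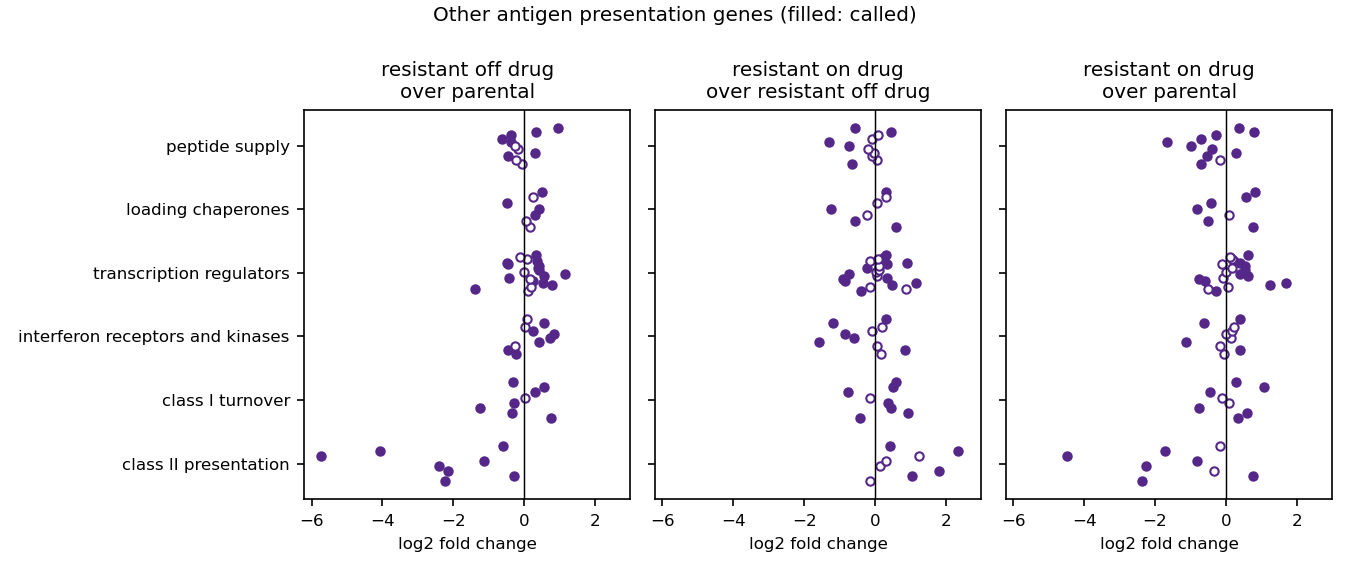
Log2 fold changes of the tested genes of 6 lists around class I presentation, with 1 panel per comparison and 1 point per gene. Filled points passed an adjusted p of 0.05 (edgeR) and open points did not. Points of most lists lie on both sides of 0, while the 8 class II genes all lie below 0 off drug against parental cells. Of these, HLA-DRA, HLA-DMB and CD74 passed the filter on low counts through parental cells alone.

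Of the 9 members, 7 lie in the major histocompatibility region on the short arm of chromosome 6, HLA-E among them at chr6:30489467-30494205. NLRC5 lies at chr16:56989485-57083531. Between HLA-F and TAPBP (chr6:29722775-33314387, GRCh38, GENCODE 29), 107 other protein-coding genes were tested. Of these neighbours, 58 were higher and 15 lower off drug against parental cells, with a median log2 fold change of 0.39, where 32.4% of all 13896 protein-coding genes tested were higher and 28.2% lower (median 0.03). In that comparison the falls of HLA-B, HLA-C and HLA-F were thus opposite in sign to the median of the genes around them. On drug against off drug 23 neighbours (21.5%) were higher and 51 (47.7%) lower, with a median of -0.21. Of all protein-coding genes tested, 31.9% were higher and 34.3% lower there (median -0.02). HLA-B, HLA-C, HLA-E, HLA-F, TAP1 and TAP2, called lower there on counts, had the sign of the neighbours' median, while TAPBP did not pass. On drug against parental cells 43 neighbours (40.2%) were higher and 31 (29%) lower (median 0.11). The shares of all protein-coding genes were 35.1% and 35% (median 0.00).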

How the data were processed

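Per the labels, poly(A) RNA was selected on oligo(dT) beads before library construction with a NEBNext Ultra II kit. The submitters' processing notes name Salmon 0.14.1, FastQC 0.12.1, bcl2fastq 2.17 and the build GRCh38.p13. No source used here names the annotation release or strand setting. Per gene, the authors deposited estimated counts and, in another table, TPM, which corrects for length and depth. No TMM factors were applied to TPM, so results in TPM differ from the count test in both length and library scaling. Genes outside the members are given on the count scale unless TPM is named. The tests had been planned for plain counts, so the estimated counts were rounded to whole numbers first.

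All 9 libraries entered 1 fit in edgeR 4.0.16 (R 4.3.3) with a mean per state, TMM factors and filterByExpr (minimum count 10, minimum total 15), which left 17307 genes. Quasi-likelihood tests (6 residual degrees of freedom) were adjusted by Benjamini-Hochberg over these genes, with calls at 0.05. Alternatives used limma 3.58.1, voom and DESeq2 1.42.0. The steps were tested on simulated counts. No pair of libraries agreed within sampling noise (lowest chi-square per degree of freedom 5.113), so none was merged. The replicate numbers did not pair the samples.

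The members and gene lists were chosen with earlier results of these data known. All members are named, and of each list the called genes with the largest changes, up to 3 per comparison at an average log2 CPM of at least 1, with PSMB8, PSMB9, PSMB10, ERAP1, CALR, IRF1 and RFX5. The text names a selection, some genes that the rule took are left out, and SUSD6, HLA-DRB1, SUZ12, MICA, MR1 off drug, RFXANK, RFXAP off drug and AL669918.1 were added after their values were seen. Promoters are from RefSeq, GRCh38.p14, and were compared only by gene symbol. Class I genes outside these lists were not analysed here.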

Additional observations from a re-analysis of the deposited data

How the results depend on the processing

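The tests rest on 3 libraries per state and 1 resistant derivative, and cover the spread between these libraries only. HLA-B, HLA-C, HLA-F, B2M and TAP2 off drug against parental cells, HLA-E, HLA-F and TAP1 on drug against off drug, and all 4 heavy chains, B2M and TAP1 on drug against parental cells kept their direction and passed in all 18 alternatives. The replicate numbers did not pair the samples (correlations of deviations -0.03 to 0.14, and 6 of 18 were highest with the same number). With a replicate block the members called were unchanged in number, and over all genes 4906 were higher and 4537 lower off drug against parental cells, 5383 and 5375 on drug against off drug, and 5768 and 5649 on drug against parental cells.

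On drug against off drug, members called higher were 1 with upper-quartile factors, with library size only, with no filter and with log2(TPM + 1) without a filter, and 2 with log2(TPM + 1) and log2(TPM + 0.1), against 0, and leaving out single libraries gave 0 to 1. Members called lower there were 3 in each TPM setting, against 7. Off drug against parental cells, members called higher were 1 in each TPM setting, against 2. On drug against parental cells they were 2 with library size only and in each TPM setting, against 1, and 0 to 2 with single libraries left out (0 without on-drug replicate 1, on-drug replicate 3 or parental replicate 1, and 2 without on-drug replicate 2). Over all genes, calls lower on drug against off drug were 3585 with library size only and 2995, 2975 and 3000 with log2(TPM + 1), log2(TPM + 0.1) and log2(TPM + 1) without a filter, against 5403. In the same TPM settings they were 2529, 2531 and 2671 off drug against parental cells, against 4602, and 2828, 2802 and 3162 on drug against parental cells, against 5690. The share of calls that were higher was 64.6% off drug against parental cells, 64.0% on drug against off drug and 69.7% on drug against parental cells with log2(TPM + 1), against 51.6, 50.1 and 50.4%.

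Signs that turned, most of them of differences that had not passed, were B2M on drug against off drug with library size only (0.01), HLA-E off drug against parental cells in the TPM settings (0.02) and without parental replicate 3 (leaving out single libraries gave -0.18 to 0.01), and TAPBP off drug against parental cells in the TPM settings (0.14). Called differences turned for TAP2 on drug against off drug (0.36, 0.37 and 0.36 in the 3 TPM settings) and for NLRC5 on drug against parental cells (0.06, 0.09 and 0.06). Relative to the parental mean, the length used in quantification for TAP2 was 0.512 to 0.670 on drug, against 0.931 to 1.040 in parental cells. That of NLRC5, a gene at a low level, was 0.722 to 0.834 on drug, just under the 0.838 to 1.18 of parental cells. The TPM settings also lack the TMM factors. The cause was not tested. Lengths of 51.05% of 5526 genes on drug were within 5% of parental cells.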

Other observations

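Other genes with a class I fold, which take part in functions beside peptide presentation, held some of the largest changes near the pathway. Of the 8 tested, 2 were higher and 4 lower off drug against parental cells (median log2 fold change -0.66, all genes 0.00), on drug against off drug 1 was higher and 7 lower (median -0.58, all genes 0.02), and on drug against parental cells 3 were higher and 5 lower (median -0.91, all genes 0.02). The shares of all genes were 28.4, 31.4 and 33.4% higher and 26.6, 31.2 and 32.9% lower, in the same order. MICB, a ligand of the activating receptor NKG2D, had 21.81 ± 1.86 CPM on drug, 35.27 ± 3.10 CPM off drug and 8.89 ± 0.801 CPM in parental cells (log2 1.99 ± 0.11 off drug against parental cells, edgeR adjusted p = 5.4e-10). MICA, its relative, was also highest off drug, with 21.84 ± 1.39 CPM on drug, 29.98 ± 2.57 CPM off drug and 18.31 ± 1.11 CPM in parental cells (edgeR adjusted p = 1e-05 off drug against parental cells). MR1, which presents vitamin metabolites to T cells, was lower off drug than in parental cells, at 29.11 ± 2.18 and 72.39 ± 3.79 CPM (log2 -1.31 ± 0.08, edgeR adjusted p = 3.5e-09). PROCR, the endothelial protein C receptor gene, had 12.2 ± 0.781 CPM on drug, 38.14 ± 1.09 CPM off drug and 100.5 ± 10.1 CPM in parental cells, the states all apart. HFE, which acts in iron sensing, was lowest off drug, with 10.3 ± 0.277 CPM on drug, 3.76 ± 0.650 CPM off drug and 7.41 ± 1.24 CPM in parental cells.

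Of the related class I loci added to the heavy chain sum above, HLA-G among them, 5 of 6 were tested. Off drug against parental cells 0 were higher and 2 lower (median -0.42), on drug against off drug 0 were higher and 3 lower (median -0.96), and on drug against parental cells 0 were higher and 5 lower (median -1.30). Of all genes, 26.6, 31.2 and 32.9% were lower in the same order, with medians of 0.00, 0.02 and 0.02. HLA-K, a pseudogene, had 1.76 ± 0.617 CPM on drug, 14.21 ± 1.02 CPM off drug and 19.04 ± 1.02 CPM in parental cells (log2 -3.01 ± 0.17 on drug against off drug, edgeR adjusted p = 3.9e-10). HLA-V had 3.54 ± 0.765 CPM on drug, 10.9 ± 2.05 CPM off drug and 9.31 ± 0.817 CPM in parental cells (log2 -1.63 ± 0.17 on drug against off drug, edgeR adjusted p = 3.8e-07). The reads of these loci could be split with the members, and the sequence each shares with them was not measured.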
